A study of Mus musculus with 15 samples.

Results

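Kit, Flt3, Ly6a, Cd34 and Thy1 are names that recur when immature blood cells are separated from mature ones, and Atxn1 shares an older name with Ly6a. The mRNA of these 6 genes was followed here in group 2 innate lymphoid cells (ILC2s) and in the bone marrow (BM) precursors of these cells (ILC2p). The genes were chosen by symbol, and 6 of the 24690 entries of the count tables carry these names, 1 entry each. RNA-seq libraries were available from ILC2s of the gut lamina propria (LP), 4 WT and 3 Tgfbr2-/-, and from BM ILC2p, 4 WT and 4 Tgfbr2-/-, or 15 libraries in all. The treated mice, from which LP ILC2s and the donor marrow of ILC2p were taken, carried Tgfbr2f/f and ER-Cre+ in the controls too, and the labels give the strain as C57BL/6. WT stands for donors that received sunflower oil, and Tgfbr2-/- for donors that received tamoxifen, at 1 mg per day in mice of 8 to 12 weeks, both for 5 days. The Cre is switched on by tamoxifen and is not restricted to a cell type, so receptor loss in Tgfbr2-/- animals was not limited to ILCs, and tamoxifen itself was given to 1 genotype only. LP ILC2s were sorted from the treated mice as CD45+, lineage negative, CD127+, Sca-1+, CD25+ and KLRG1+ cells. By the study's methods these mice were killed the day after the last dose. ILC2p were sorted as CD45.2+, lineage negative, CD127+, α4β7+ and CD25+ cells from irradiated CD45.1 hosts that had received BM of treated donors together with CD45.1 BM 6 weeks before. The CD45.1 BM was normal, and only the CD45.2+ cells came from the floxed donors.

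Each cell type was sequenced in 2 experiments, and no experiment held both cell types, so that experiment and cell type cannot be told apart in a comparison of ILC2p with LP ILC2s. The labels do not say which libraries came from separate animals, and p-values therefore measure the spread between these samples, which may be technical. Counts on genes summed to 12167066 to 32114265 per library in LP ILC2s and to 10957021 to 35961215 in ILC2p. The ILC2p libraries agreed less well with each other. In 4 of them, WT replicate 1 and Tgfbr2-/- replicates 1 and 2 of experiment 1 and Tgfbr2-/- replicate 2 of experiment 2, between 8.28% and 14.2% of the genes whose median reached 50 CPM (counts relative to the total of the library) in the other libraries of the same cell type lay under 1 CPM. In the other 4 ILC2p libraries this share was 1.66% to 3.64%, and in LP ILC2s it was at most 0.0287%. These are genes that most libraries of a cell type show at a good level and a single library nearly lacks.

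Tgfbr2 itself, the targeted gene, was counted over the full transcript, which includes exons that the deletion keeps, so its level does not check the labels. In LP ILC2s the WT libraries held 174.1, 256.7, 145.5 and 201.8 CPM of Tgfbr2 and the Tgfbr2-/- libraries 202.1, 179 and 95.03 CPM. In ILC2p the WT libraries held 0.7031, 226.7, 109.3 and 184 CPM and the Tgfbr2-/- libraries 88.93, 134.1, 31.81 and 232.6 CPM, the libraries of experiment 1 first. The genotypes overlapped in both cell types, and the lowest level of all, from 8 counts, was in the ILC2p library labelled WT, experiment 1, replicate 1.

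Blood formation runs from stem cells through lymphoid progenitors to committed precursors, and surface proteins mark the steps. Kit, the receptor for stem cell factor, and Flt3, the receptor for Flt3 ligand, are receptor tyrosine kinases that carry survival and growth signals in stem and early progenitor cells, and Flt3 is lost as cells commit to the ILC lineage. Sca-1, the product of Ly6a, and Thy-1 are small glycoproteins held in the membrane by a lipid anchor, the first a mark of stem cells that ILC2s also bear and the second a mark of T cells and ILCs. CD34 is a sialomucin of stem cells, progenitors and blood vessels. Atxn1 is the exception in the group, since ataxin-1 is a nuclear protein that works with the transcriptional repressor Capicua and has no place at the cell surface. Its older name, Sca1, is shared with Ly6a in the gene annotation, and the sort gate refers to the Ly6a protein.

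The 6 genes did not share a direction between WT ILC2p and mature WT LP ILC2s. Flt3 was not detected, Cd34 was low in WT cells of both kinds, and Kit and Atxn1 lay lower in WT ILC2p without passing the test. Ly6a and Thy1 lay higher in WT ILC2p, and Ly6a, the most abundant of the 6, passed. In Tgfbr2-/- ILC2p both lay below all WT ILC2p libraries, without passing.

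Per length of transcript, the scale on which genes can be ranked, Ly6a was by far the most abundant of the 6 in WT ILC2p, at 704.5 ± 85.1 RPKM (reads scaled to transcript length and library depth, as deposited, SD, n = 4). Thy1 followed at 67.77 ± 16.17 RPKM, and its lowest library, at 54 RPKM, lay above the highest Kit library, at 30.64 RPKM. Kit at 18.15 ± 12.5, Cd34 at 3.307 ± 5.126 and Atxn1 at 1.951 ± 1.737 RPKM could not be put in order, since each of them overlapped the next. In WT LP ILC2s the order was Ly6a (348.9 ± 81.93 RPKM), Kit (69.87 ± 17.3), Thy1 (29.82 ± 7.437), Atxn1 (9.461 ± 3.113) and Cd34 (2.975 ± 3.435), and only the last pair overlapped. Kit and Thy1 thus changed places between the precursor and the mature cell.

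On NCBIM37, the assembly also called mm9, Kit lies on chromosome 5 at 75970941 to 76052747, Cd34 on chromosome 1 at 196765015 to 196787486 and Thy1 on chromosome 9 at 43851467 to 43856662, all on the plus strand, and Atxn1 on chromosome 13 at 45650262 to 46060345 on the minus strand. The annotation has a non-coding RNA on the other strand of Cd34, Gm16897. Counting left out regions shared by genes of different names, but whether this covered Gm16897 was not checked. Where it did not, reads of Gm16897 could not be told from those of Cd34, as the strand of the libraries is unknown.

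Flt3 was at 0 counts in all 15 libraries. The limit that a count of 0 allows, taken as 3 counts in a library, corresponds to 0.0711 to 0.321 CPM. Such a level is not unusual in these tables, as 6965 entries, or 28.2%, were at 0 in every library. The labels' gate for ILC2p does not name Flt3, but the study's other gates for these precursors take Flt3 negative cells. The gene lies on chromosome 5 at 148142317 to 148212065 (minus strand), where the annotation has an overlapping non-coding RNA, Gm17398, and counting left out regions shared by genes of different names.

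In WT cells, Ly6a was higher in ILC2p than in LP ILC2s and was the only member called. The WT ILC2p libraries held 603.9, 605.7, 562.1 and 588.8 CPM of Ly6a, the WT LP ILC2 libraries 245.3, 284.8, 311.3 and 349.8 CPM. The groups did not overlap, and the ILC2p values lay close to each other (590.1 ± 20.16 CPM, SD, n = 4). The log2 fold change was 0.97 ± 0.196 (SE), or 1.963-fold, with an adjusted p of 0.0425 in edgeR's quasi-likelihood test, and the exact two-sided permutation test gave 0.0286, the smallest p that 4 against 4 libraries allow. A gene was called where its adjusted p over all genes tested was under 0.1 and its fold change over 1.5. By this rule 1 of the 5 members that passed the filter on low counts was called, beside 2.56% of the 10468 genes tested (0.736% higher and 1.82% lower in ILC2p). The call was lost without any 1 of the LP ILC2 libraries of WT experiment 1 (adjusted p = 0.112 and 0.143), replicate 1 of experiment 2 (adjusted p = 0.128) or ILC2p WT replicate 2 of experiment 1 (adjusted p = 0.128), while the log2 value moved between 0.88 and 1.07. LP ILC2s were gated on the Ly6a protein and ILC2p, as the gate is stated, were not, so that a gene of the gate is compared here. In its flow cytometry of ILC2p the study took Sca-1 positive cells that were negative for the Kit protein.

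The other members with separate groups did not pass. Thy1 was at 161.8, 90.51, 85.29 and 85.01 CPM in WT ILC2p and at 54.41, 64.48, 39.35 and 31.7 CPM in WT LP ILC2s, on the same side as Ly6a (log2 1.15 ± 0.422, adjusted p = 0.367, edgeR). Kit went the other way, with 12.48, 128.8, 67.83 and 103.1 CPM in WT ILC2p against 493.6, 326.5, 228 and 283.7 CPM in WT LP ILC2s (log2 -2.09 ± 0.592, adjusted p = 0.17). Atxn1 was at 0.791, 24.83, 9.188 and 31.99 CPM in WT ILC2p and at 55.26, 90.45, 99.65 and 106.1 CPM in WT LP ILC2s (log2 -2.40 ± 0.909, adjusted p = 0.388). Every WT ILC2p library was above every WT LP library for Ly6a and Thy1, and below for Kit and Atxn1, a separation that 4.14% of the genes tested showed upwards and 6.24% downwards. The exact permutation p was 0.0286 for each of the 4 genes. The library low in Tgfbr2 was also the lowest of the WT ILC2p libraries in Kit and Atxn1. Without that library Kit was called, at a log2 fold change of -1.73 ± 0.34 with an adjusted p of 0.0419 by edgeR, and the values for Atxn1 and Thy1 were -2 (adjusted p = 0.11) and 0.87 (adjusted p = 0.339). DESeq2 called Kit (adjusted p = 0.0127) and Atxn1 (adjusted p = 0.0845) with all 8 libraries. Cd34 was low and uneven in both WT groups, from 0.5761 to 20.24 CPM in ILC2p and from 0 to 15.77 CPM in LP ILC2s.

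**Figure D1:**
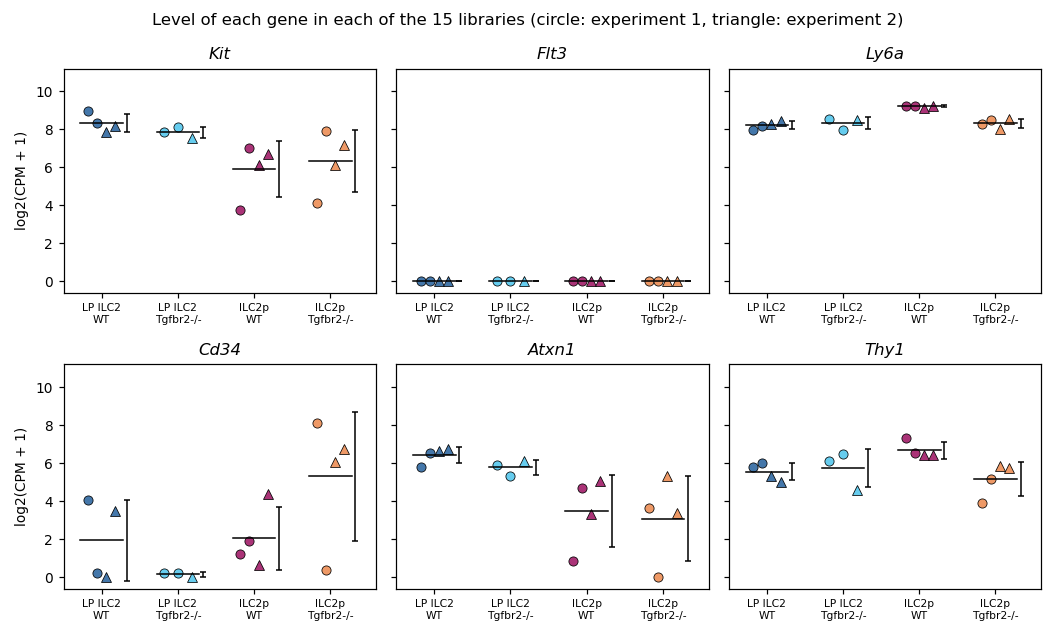
Level of each of the 6 genes in every library as log2(CPM + 1), with libraries as points, the group mean as a line and the SD as a bar, for ILC2p and LP ILC2s of both genotypes. Ly6a in WT ILC2p (562.1 to 605.7 CPM) stands above all 11 other libraries, Flt3 is at 0 throughout, and Cd34, Atxn1 and Kit spread widely in ILC2p.

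Ly6a is 1 of a cluster of related genes on chromosome 15 that share stretches of sequence, which matters for counting, because reads with several places in the genome were kept. Ly6a lies at 74825308 to 74828064 (NCBIM37, minus strand), Ly6i at 74810242 to 74813860, Ly6c1 at 74875447 to 74879260 and Ly6c2 at 74938590 to 74942114 on the same strand, and Ly6f at 75098851 to 75102664 on the other. The first 100 coding bases of the 5 genes are shown 5′ to 3′ from the GENCODE transcripts of NCBIM37, with the bases that differ from Ly6a in capitals, to show where they are alike and where they differ.
Ly6a: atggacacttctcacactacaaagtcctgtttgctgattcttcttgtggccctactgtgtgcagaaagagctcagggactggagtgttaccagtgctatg
Ly6i: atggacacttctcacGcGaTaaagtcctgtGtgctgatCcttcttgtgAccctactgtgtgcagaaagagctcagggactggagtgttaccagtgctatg
Ly6c1: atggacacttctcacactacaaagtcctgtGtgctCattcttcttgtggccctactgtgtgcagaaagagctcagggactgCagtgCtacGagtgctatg
Ly6c2: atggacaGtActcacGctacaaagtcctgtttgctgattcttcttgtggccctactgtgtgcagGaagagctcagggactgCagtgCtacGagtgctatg
Ly6f: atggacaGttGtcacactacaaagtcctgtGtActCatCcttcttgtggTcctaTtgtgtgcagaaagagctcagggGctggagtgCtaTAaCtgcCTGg
Over the whole coding sequence the identity to Ly6a was 86.4% for Ly6i, 84.4% for Ly6f, 82% for Ly6c1 and 81.7% for Ly6c2. The longest stretch shared without a difference was 80 bases with Ly6i, 52 with Ly6c2 and 48 with Ly6c1. The level of every gene of this cluster is uncertain to the extent that reads were assigned to the wrong copy, and the read length is not given in the sources used here.

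In ILC2p the Tgfbr2-/- libraries held less Ly6a than the WT libraries, though the difference just missed the threshold. Ly6a was at 306.9, 353.5, 261 and 378 CPM in Tgfbr2-/- ILC2p, against 562.1 to 605.7 CPM in WT ILC2p. The groups did not overlap in either experiment. The log2 fold change was -0.96 ± 0.253 (adjusted p = 0.114, edgeR quasi-likelihood), a 1.95-fold lower level, and the exact permutation test within experiments gave 0.0556, the smallest p it can give. Within experiment 1 the log2 value was -0.96 and within experiment 2 it was -1. Over 21 alternative settings it lay between -1.30 and -0.84 with adjusted p from 0.00641 to 0.464, and it passed the threshold under 5 of them, among these scaling by library size (adjusted p = 0.0382) and limma on log2(RPKM + 1) (adjusted p = 0.00641). The median of all genes lay at -0.1 with the scaling used and at -0.31 with library size alone, and Ly6a lay 0.87 and 0.88 below these medians.

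Thy1 had the same order in ILC2p. The Tgfbr2-/- libraries held 13.95, 35.16, 56.44 and 53.55 CPM of Thy1, all below the lowest WT library at 85.01 CPM, and the lowest and highest libraries of the 8 were both from experiment 1. The log2 fold change was -1.59 ± 0.819 (adjusted p = 0.667, edgeR), and -2.43 in experiment 1 against -0.77 in experiment 2. Ly6a and Thy1 were the members whose genotype groups stood apart in ILC2p, where 3.56% of the genes tested were separate in the lower direction and 6.6% in the higher.

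The remaining members varied widely within each genotype of ILC2p. Cd34 was at 1.318, 2.715, 0.5761 and 20.24 CPM in WT and at 272.5, 0.3206, 64.86 and 107.6 CPM in Tgfbr2-/- ILC2p. High values were found in 3 of the 4 Tgfbr2-/- libraries, with 1480 to 2697 counts each, while replicate 2 of experiment 1 had 3 counts. The log2 fold change of Cd34 was 4.43 ± 2.02 (adjusted p = 0.548, edgeR), and among the alternatives run DESeq2 alone called it (adjusted p = 0.0175). The value was 1.46 without Tgfbr2-/- replicate 1 of experiment 1 and 6.41 without WT replicate 2 of experiment 2. Kit was at 16.57, 244.7, 69.77 and 141.7 CPM in Tgfbr2-/- ILC2p (log2 0.49 ± 0.993, adjusted p = 0.954) and Atxn1 at 11.62, 0, 39.35 and 9.344 CPM (log2 -0.55 ± 1.909, adjusted p = 0.981). Both lay across the range of the WT libraries, and both changed sign once the 4 libraries with many missing genes were left out, to -0.42 for Kit and 0.80 for Atxn1, an alternative chosen after seeing the data that leaves 1 Tgfbr2-/- library and assumes that it varies like the WT libraries. None of the 5 members tested was called between Tgfbr2-/- and WT ILC2p, where 3.47% of 9242 genes were called (2.61% higher and 0.866% lower in Tgfbr2-/- cells). Of these calls 75.1% were upwards, and 63% with upper quartile scaling.

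**Figure D2:**
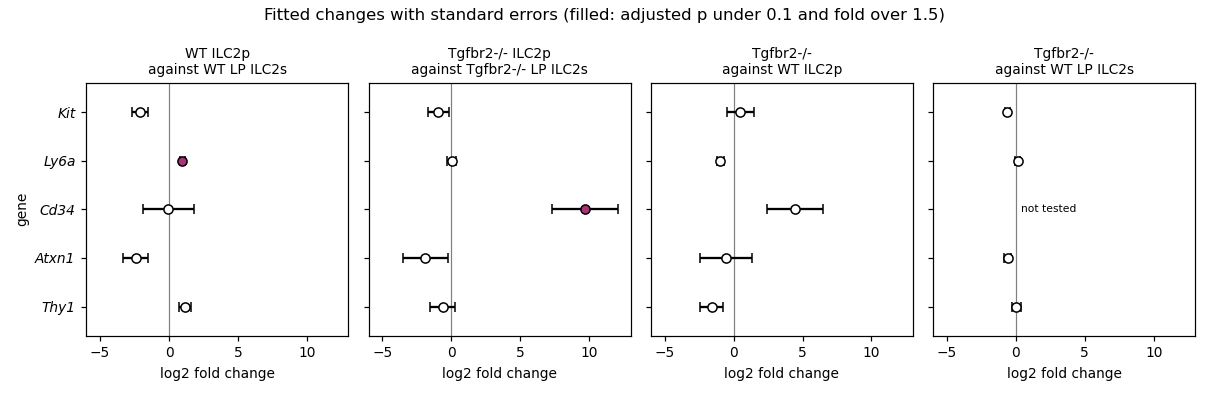
Log2 fold change with its SE (edgeR) for each gene in the comparison of ILC2p with LP ILC2s, by genotype, and of Tgfbr2-/- with WT, by cell type, with filled symbols for called genes. Ly6a is called between WT ILC2p and WT LP ILC2s (0.97) and Cd34 between the Tgfbr2-/- groups (9.68), and the SE of Cd34 is 2.02 between the ILC2p genotypes.

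Markers of other cells moved with genotype in ILC2p, where 2.61% of all genes tested were called higher and 0.866% lower. The 8 ILC2 markers, led by Gata3, summed to 4435 to 6471 CPM in WT ILC2p and to 1813 to 3184 CPM in Tgfbr2-/- ILC2p, and 2 of the 7 tested fell: Gata3, the transcription factor that defines the lineage (log2 -1.41, adjusted p = 0.0603, edgeR), and Il1rl1, the IL-33 receptor (log2 -1.96). By the study's RNA-seq, on fewer replicates, Gata3 was unchanged and Il1rl1 lower in Tgfbr2-/- ILC2p, and GATA3 protein did not differ in those cells. The 9 markers of neutrophils and their precursors summed to 906.8 to 1627 CPM in WT and to 76620 to 91720 CPM in Tgfbr2-/- ILC2p, with S100a8, a calcium-binding protein of neutrophils, on top, and 8 of the 9 rose, all but Elane. Of the 5 monocyte and macrophage markers, led in Tgfbr2-/- ILC2p by the lysozyme gene Lyz2, 2 rose, and their sum was 25.05 to 92.6 CPM in WT and 11640 to 13560 CPM in Tgfbr2-/- ILC2p. Mast cell and basophil markers summed to 119.5 to 295.6 CPM and to 2178 to 3307 CPM, and 5 of the 6 tested were called higher. The other one tested, Cpa3, a mast cell protease and the most abundant of the list in WT ILC2p, was at a log2 value of -0.02 (adjusted p = 0.999, edgeR). Of those called, Gata2, Fcer1a and Mcpt8 were at most at 1.152, 0.7489 and 1.901 CPM in WT ILC2p and were tested through the genotype where they are high, while Tpsb2 and Cma1, of mast cells, were at 0 in all ILC2p libraries. The NK and ILC1 list also lay apart, at 0.4394 to 38.02 CPM in WT and 70.03 to 456.1 CPM in Tgfbr2-/- ILC2p, as did the dendritic cell list, led by the chemokine receptor gene Ccr9, at 569.6 to 763.4 CPM and 15.56 to 492.5 CPM, with 0 of 3 and 0 of 2 tested markers called. T cell markers overlapped between the genotypes and summed to at most 71.45 CPM in any ILC2p library. Myeloid markers also separated the WT cell types. Of the 9 neutrophil markers 8 were called higher in WT ILC2p than in WT LP ILC2s, where they summed to at most 3.612 CPM. Of 4 mast cell and basophil markers tested 2 were, and 0 of either list were lower, beside 0.736% higher and 1.82% lower over all genes tested. The neutrophil markers could not be tested within LP ILC2s and entered through ILC2p, where they are high. By the study's methods the lineage antibodies for ILC staining included CD11b and Gr-1, borne by neutrophils and monocytes, so that the gate would remove such cells. In bulk libraries, fewer cells of a type and less RNA per cell cannot be told apart.

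**Figure D3:**
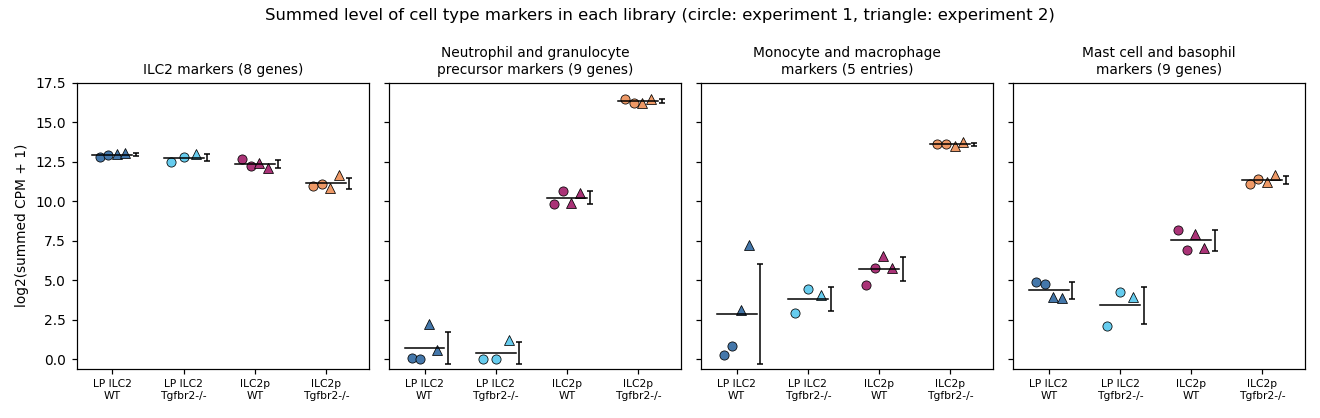
Summed level of the ILC2, neutrophil, monocyte and mast cell marker lists in each library as log2(summed CPM + 1). The neutrophil sum separates Tgfbr2-/- ILC2p (76620 to 91720 CPM) from WT ILC2p (906.8 to 1627 CPM), and the ILC2 sum lies lower in Tgfbr2-/- ILC2p (1813 to 3184 CPM) than in all other groups.

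As a share of the summed ILC2 markers, a sum that Gata3 leads, Ly6a and Thy1 overlapped between the ILC2p genotypes. Ly6a amounted to 9.33%, 12.8%, 10.3% and 13.3% of the summed ILC2 markers of the same library in WT ILC2p and to 15.1%, 16.5%, 14.4% and 11.9% in Tgfbr2-/- ILC2p. Thy1 amounted to 2.50%, 1.91%, 1.57% and 1.92% of the sum in WT and to 0.684%, 1.64%, 3.11% and 1.68% in Tgfbr2-/- ILC2p. This scale, chosen after seeing the data, moves every gene of a library by the same amount, and the sum itself lay lower in Tgfbr2-/- ILC2p, so it says nothing particular to Ly6a or Thy1. The part of the myeloid and ILC2 marker shifts in the Ly6a and Thy1 values was not tested.

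Of the genes next to Ly6a, Ly6c1 and Ly6c2 rose in the same libraries. Ly6c2, a surface protein of monocytes and neutrophil precursors, had a median of 35.9 RPKM (15.1 to 70.4) in WT and of 914 RPKM (825 to 1120) in Tgfbr2-/- ILC2p, and it rose by edgeR's test (log2 5.07, adjusted p = 0.000367). Ly6c1 had a median of 41.4 and 235 RPKM and was called as well (log2 2.91, adjusted p = 0.0975). Ly6i, the closest relative of Ly6a, had medians of 16.8 and 10.2 RPKM with overlapping ranges, on the same side as Ly6a (log2 -0.37 ± 1.229, adjusted p = 0.978), and Ly6f was at or near 0. In Tgfbr2-/- ILC2p, Ly6c2 thus exceeded Ly6a (299 RPKM), while in WT ILC2p Ly6a (711 RPKM) was far ahead. Among the 11 genes of the Ly6 family list, 4 passed the filter, and Ly6c1 and Ly6c2 were the 2 that were called, both upwards. Over all genes tested 2.61% were called higher and 0.866% lower.

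**Figure D4:**
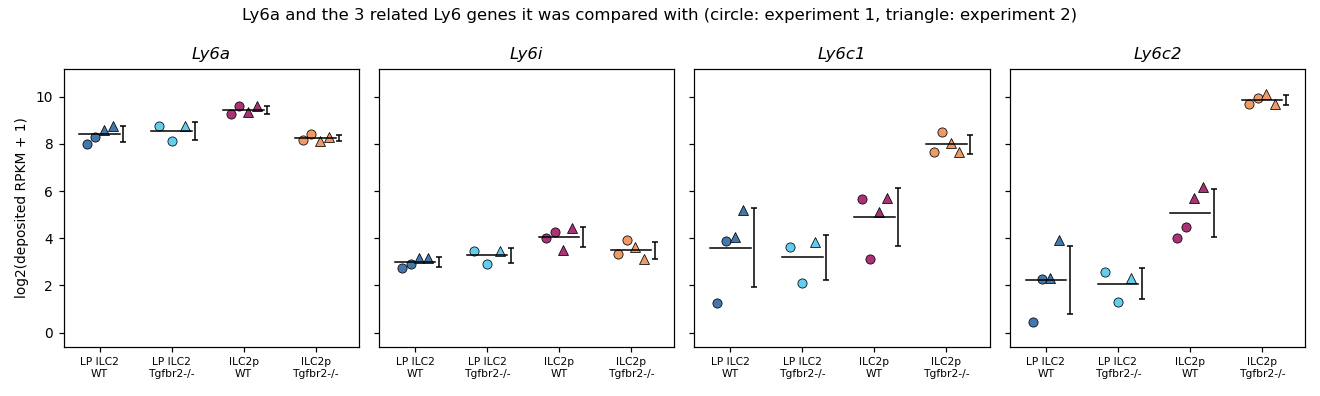
Ly6a, Ly6i, Ly6c1 and Ly6c2 in every library as log2(RPKM + 1). From WT to Tgfbr2-/- ILC2p the median of Ly6a goes from 711 to 299 RPKM and that of Ly6c2 from 35.9 to 914 RPKM, and in LP ILC2s the 2 Ly6c genes stay at or below 35.6 RPKM in both genotypes.

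In LP ILC2s no member was called by genotype. The study, by edgeR at the same thresholds on fewer replicates per condition, listed Atxn1, as Sca1, among genes decreased in Tgfbr2-/- LP ILC2s. Ly6a was at 366.3, 249.4 and 354.5 CPM in the Tgfbr2-/- libraries, across the WT range of 245.3 to 349.8 CPM (log2 0.15 ± 0.18, adjusted p = 0.928, edgeR). Kit was at 234.1, 273.3 and 186.6 CPM in the Tgfbr2-/- libraries (log2 -0.61 ± 0.202, adjusted p = 0.898), and Atxn1 at 58.27, 39.61 and 68.82 CPM (log2 -0.59 ± 0.269, adjusted p = 0.898). The groups overlapped for both genes, as they did for all but 3.04% (higher) and 2.32% (lower) of the genes tested, and the exact permutation p was 0.111 for each, where 0.0556 is the smallest possible. Thy1 was at 69.44, 90.31 and 23.42 CPM (log2 0.02 ± 0.323, adjusted p = 0.996), and Cd34, with 6, 6 and 0 counts in the Tgfbr2-/- libraries, did not pass the filter. None of the 4 members tested was called, and 0% of the 11981 genes were, by edgeR's quasi-likelihood test. An unadjusted p under 0.05 was found for 557 genes, or 4.65% of those tested, which is no more than chance gives, and DESeq2 called 338. Whether the genotype effect differed between ILC2p and LP ILC2s was tested in a fit over all libraries. LP ILC2s came from mice killed the day after the last dose, and ILC2p from irradiated hosts 6 weeks after transfer. Time since treatment and host therefore cannot be told apart from cell type in this difference. The difference was -1.11 ± 0.335 for Ly6a (adjusted p = 0.166), and it passed the threshold with library size scaling (adjusted p = 0.0719), upper quartile scaling (0.0616), limma (0.01) and the filter at 10 counts in every library (0.0398). For Cd34, which did not pass the filter in LP ILC2s alone and entered through ILC2p, it was 10.58 ± 3.474 (adjusted p = 0.214), with 4.11 to 12.55 and adjusted p down to 0.000414 over 22 alternatives, of which 3 passed on the same footing, and for Thy1 it was -1.61 ± 0.912 (adjusted p = 0.551). By the quasi-likelihood test none of the 5 members tested was called, beside 0.992% of 12806 genes (0.523% upwards and 0.469% downwards). The median of all genes was -0.31 for this difference, and -0.61 with library size alone, and of the calls 52.8% and 32.7% were upwards.

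Between Tgfbr2-/- ILC2p and Tgfbr2-/- LP ILC2s, Cd34 was the member called. It was at 6, 6 and 0 counts in the LP libraries and entered this test only through the ILC2p group, where it is high, so the call is a description of that difference in level. Its 4 ILC2p values, from 0.3206 to 272.5 CPM, lay above the 3 LP values, from 0 to 0.1894 CPM, and the log2 fold change was 9.68 ± 2.376 (adjusted p = 0.0335, edgeR). The lowest ILC2p library had 3 counts. Without any 1 of the LP libraries the adjusted p was 0.101 to 0.115, without that ILC2p library it was 0.0162, and without any of the other 3 ILC2p libraries Cd34 did not pass the filter and was not tested. limma on log2(RPKM + 1) gave 4.12 with an adjusted p of 0.117. The exact permutation p was 0.0571. Ly6a, so different between the WT cell types, was at 261 to 378 CPM in Tgfbr2-/- ILC2p and at 249.4 to 366.3 CPM in Tgfbr2-/- LP ILC2s (log2 0.02 ± 0.31, adjusted p = 0.992), and its sign turned with the scaling, to -0.38 by library size and -0.61 by the upper quartile. Atxn1 was below the LP libraries in every ILC2p library (log2 -1.88 ± 1.639, adjusted p = 0.731). The highest ILC2p library, at 39.35 CPM, nearly met the lowest LP library, at 39.61 CPM. In this comparison 16% of genes were separate downwards and 8.51% upwards. Kit (log2 -0.95 ± 0.771, adjusted p = 0.696) and Thy1 (log2 -0.62 ± 0.902, adjusted p = 0.883) overlapped between the cell types. Without the 3 ILC2p libraries with many missing genes, which leaves 1 ILC2p library that is assumed to vary like the LP libraries, Kit was called lower in ILC2p, at -1.73 with an adjusted p of 0.0294. In all, 1 of the 5 members tested was called, beside 13.7% of 11469 genes (4.6% higher and 9.13% lower in ILC2p). Of these calls 33.5% were upwards, and 22.5% with upper quartile scaling, which moved the median of all genes from 0.27 to -0.34.

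The genes around the members in the pathways were followed in lists chosen for this purpose. Of 21 stem and multipotent progenitor genes, 11 could be tested between Tgfbr2-/- and WT ILC2p, and 2 rose, beside 2.61% of all genes tested. Spi1, which encodes the myeloid and progenitor transcription factor PU.1, was at 1.303 to 4.609 CPM in WT and at 478.3 to 865.6 CPM in Tgfbr2-/- ILC2p (log2 7.69, adjusted p = 0.000124, edgeR). Gata2, of stem cells and of mast cells and basophils, was at most at 1.152 CPM in WT and between 0.4042 and 343.3 CPM in Tgfbr2-/- ILC2p (log2 8.77, adjusted p = 0.0562), and it was tested through the genotype where it is high. Of the 11 genes, 6 had a positive and 5 a negative value, and their median was 0.43, beside -0.1 over all genes tested. Between the Tgfbr2-/- cell types 14 could be tested and 5 rose in ILC2p, Gata2, Spi1, Myb, Lmo2 and Lyl1, all transcriptional regulators of early blood cells, beside 4.6% higher and 9.13% lower over all genes tested. Of the 14, 8 had a positive and 6 a negative value, and their median of 0.08 lay below that of all genes tested, 0.27. Gata2, Myb and Lmo2 could not be tested within LP ILC2s and entered through the ILC2p group, where they are high. In the same comparison Mecom, a stem cell regulator at 0 in the Tgfbr2-/- ILC2p libraries and at 1.768 to 4.655 CPM in LP ILC2s, fell, and it entered through the LP group. In WT cells 9 could be tested between cell types, and 0 were called.

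Of 20 lymphoid and ILC progenitor genes, 15 could be tested in ILC2p, and 4 fell in Tgfbr2-/- cells while 0 rose, beside 0.866% lower and 2.61% higher over all genes tested. Cxcr6, a chemokine receptor of ILC progenitors, was at 618.5 to 1178 CPM in WT and at 223.8 to 294.3 CPM in Tgfbr2-/- ILC2p (log2 -1.82, adjusted p = 0.0101, edgeR). Id2, which all ILCs need, was at 1986 to 3334 CPM and at 1213 to 1751 CPM (log2 -0.97, adjusted p = 0.0447), close in size to the value of Ly6a. Gata3 and Itgb7, the β7 chain of the integrin in the ILC2p gate (log2 -1.05, adjusted p = 0.0832), were the others. Of the 15, 13 had a negative value, and their median was -0.97, beside -0.1 over all genes tested. Ets1, a transcription factor of lymphoid cells, was the only one of the 15 tested that was called between WT cell types, lower in ILC2p (log2 -0.98, adjusted p = 0.0413).

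Genes of Kit and Flt3 signalling were not called in any of the 4 comparisons. Of the 20 on the list, 18 could be tested in ILC2p, 6 with a positive and 12 with a negative value, and their median was -0.60, beside the same -0.1. Kitl, the ligand of Kit, was at 0 in every WT ILC2p library and at most at 0.3506 CPM in Tgfbr2-/- ILC2p. Flt3l, the ligand of the undetected Flt3, was present, at 34.28 to 132.4 CPM in WT ILC2p and 45.92 to 133.1 CPM in WT LP ILC2s. Of 6 partners and targets of ataxin-1, 3 or 4 could be tested per comparison, and 0 were called, Cic, the gene of Capicua, among them (log2 3.21 ± 1.6 by genotype in ILC2p, adjusted p = 0.638).

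Klrg1, which only the LP gate uses, was at 75.23 to 177.6 CPM in WT ILC2p and at 816.6 to 950.8 CPM in WT LP ILC2s, and was lower in ILC2p (log2 -2.97, adjusted p = 0.000803, edgeR). Il7r (CD127) and Il2ra (CD25) were present in all ILC2p libraries, and by genotype their log2 values were -0.94 (adjusted p = 0.205) and -1.20 (adjusted p = 0.169). Itga4 was at -1.51 (adjusted p = 0.118) and Ptprc (CD45) at 0.20 (adjusted p = 0.952). Of these 6 gate genes Itgb7 was the 1 called by genotype in ILC2p, beside 0.866% lower and 2.61% higher over all genes tested. By genotype 1 of the 6 had a positive and 5 a negative value, and their median was -0.99, beside -0.1 over all genes tested.

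Between the 2 experiments of a cell type no member was called by the quasi-likelihood test. In ILC2p 0% of the 9242 genes tested were called by edgeR's quasi-likelihood test (288, or 3.12%, had an unadjusted p under 0.05, no more than chance gives, and DESeq2 called 397), and the member values lay between -0.14 (Ly6a) and 1.33 (Atxn1). In LP ILC2s 0.977% of genes were called (0.284% higher and 0.693% lower in experiment 2), and 0 of the 4 members tested were, with Thy1 at -1.15 ± 0.329 (adjusted p = 0.177, edgeR, but 0.0271 by DESeq2 and 0.0862 by the likelihood ratio test, which called it) and Kit at -0.60 ± 0.202 (adjusted p = 0.254) in experiment 2 against 1. Leaving out any 1 library took the LP calls over all genes from 117 to between 0 and 10.

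The members did not follow a common pattern across libraries. Over the 8 ILC2p libraries, Pearson's r of log2(CPM + 1) was 0.75 for Ly6a with Thy1, 0.075 for Kit with Atxn1 and -0.614 for Ly6a with Cd34, and over all 15 libraries the values were 0.474, 0.531 and -0.125. Libraries share genotype, experiment and depth, and these are descriptions. Among 12768 genes, the ones most like Kit over the 15 libraries were Tob2 (r = 0.959), Rusc1 (0.947) and Herc2 (0.93), and the ones most like Ly6a were Pbld1 (0.914), Fbxo44 (0.878) and 3110007F17Rik (0.862). Nfil3 was the gene most like Atxn1 (0.926), Svip the one most like Cd34 (0.906) and Snf8 the one most like Thy1 (0.845).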

How the data were processed

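Samples were grouped by the genotype, cell type, experiment and replicate number that their labels give. The label of the Tgfbr2-/- LP ILC2 library of experiment 2 gives no replicate number. For ILC2p experiment 1 the library numbers in the deposited names differ from those in the sample titles, and the titles were followed. The authors mapped reads to mm9 with TopHat, allowing several hits (the submitters' processing notes name Bowtie2), and deposited, per the file headers, raw counts of reads per RefSeq gene over the full transcript and RPKM relative to the reads used for normalization. The strand and read length are not given in the sources used here. 0 columns of other samples were present. Counts of the 15 libraries went into edgeR 4.0.16 (R 4.3.3, TMM scaling, filterByExpr, quasi-likelihood test, Benjamini-Hochberg adjustment over all genes tested), with experiment as a covariate for genotype. A gene was called at an adjusted p under 0.1 together with a fold change over 1.5, and the SE is the log2 fold change divided by the square root of F. CPM used the TMM factors. Single members were also compared by exact permutation of log2(CPM + 1), two-sided, within experiments for genotype. All arrangements were enumerated, and scipy 1.17.1 gave the same p-values for the WT cell types. The quasi-likelihood test was checked on counts simulated from edgeR's own fitted dispersions. Alternatives were DESeq2 1.42.0, edgeR's likelihood ratio test, limma 3.58.1 on log2(RPKM + 1), other scalings and filters, a replicate block, each experiment alone and leaving out each library.

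Named are the 6 members, Tgfbr2, the gate genes and up to 5 called genes of each list by size of change. Of the genes most correlated with a member, the first 3 were named for Kit and Ly6a. Only the first was named for Atxn1, Cd34 and Thy1. Cic, Kitl, Flt3l, Il1rl1, Elane, Hdc, Csf3r, Ltf, Tpsb2, Cma1, Cpa3, Fcer1a, Mcpt8, Ccr9, S100a8, Lyz2, Ly6i and Ly6f were named beyond that rule. The members, lists and tests were chosen with earlier results of these data known, and list counts support nothing on their own. Gene positions and coding sequences came from the NCBIM37 annotation. Same-numbered replicates did not deviate together (r = -0.007 and -0.037 in ILC2p, -0.046 in LP ILC2s), so the numbers were not taken as pairs.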

Additional observations from a re-analysis of the deposited data

Results flagged for a closer look

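All 15 checks for a library that stands apart from the other 3 of its group were on the members. They used Dixon's test, which flags about 1 group in 20 by chance, and a pair of them flagged a library. Thy1 in ILC2p WT replicate 1 of experiment 1, at 161.8 CPM, was far above the other WT ILC2p libraries at 85.01 to 90.51 CPM. This is also the library with 14.2% of widely expressed genes under 1 CPM and with 8 counts of Tgfbr2. Cd34 in ILC2p WT replicate 2 of experiment 2, at 20.24 CPM, was far above the other 3 at 0.5761 to 2.715 CPM, and the same library had 1.66% of such genes under 1 CPM.

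Among the genes of the lists, Ly6c2 and Hdc had a genotype effect that differed between ILC2p and LP ILC2s by the test of the difference itself (edgeR over 15 libraries). Host and time since treatment go with cell type in that test. The difference on the log2 scale was 5.18 for Ly6c2 (adjusted p = 0.0516) and 7.85 for Hdc, the histamine-forming enzyme of mast cells and basophils (adjusted p = 0.0136). The same fit gave 10.29 for Csf3r, the receptor for G-CSF (adjusted p = 0.0714), and 14.13 for Ltf, the neutrophil granule protein lactoferrin (adjusted p = 0.0526). Both of these were at 0 in every Tgfbr2-/- LP library, were not tested within LP ILC2s and entered through ILC2p, where they are high, so their values are a description.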

How the results depend on the processing

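Counts of calls depended on the tool. DESeq2 and edgeR's likelihood ratio test called 604 and 426 genes between WT ILC2p and WT LP ILC2s (268 by the quasi-likelihood test), 1229 and 556 between Tgfbr2-/- and WT ILC2p (321), 338 and 56 between the LP ILC2 genotypes (0), 1502 and 997 for the difference between cell types (127), 397 and 60 between ILC2p experiments (0) and 1347 and 632 between LP experiments (117). limma called 406 between the WT cell types and 388 for the difference. With no filter on low counts there were 176 calls between the WT cell types, 3 between LP genotypes, 259 for the difference, 5 between ILC2p experiments and 320 between LP experiments. With at least 10 counts in every library there were 389 between the Tgfbr2-/- cell types (1575), 203 between ILC2p genotypes and 66 between LP experiments. Scaling by library size and by the upper quartile gave 196 and 203 for the difference and 24 and 31 between LP experiments, of which 13 were higher under each, and at an adjusted p under 0.05 there were 68 and 5. Single pairs of experiments gave 5, 1, 96 and 40 calls between WT cell types and 2838, 15, 198 and 44 between Tgfbr2-/- cell types, and the ILC2p genotypes gave 38 in experiment 1 and 77 in experiment 2. Leaving out each library in turn gave 95 to 375 calls between WT cell types, 1095 to 2384 between Tgfbr2-/- cell types, 179 to 319 between ILC2p genotypes, 0 to 0 between LP genotypes, 14 to 407 for the difference, 0 to 0 between ILC2p experiments and 0 to 10 between LP experiments. Without the ILC2p libraries with over 5% of widely expressed genes under 1 CPM, chosen after seeing the data, 25 genes were called between ILC2p genotypes and 4781 between Tgfbr2-/- cell types. The causes were not tested.

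A replicate block moved the calls between ILC2p genotypes from 321 to 175, and changed the call of none of the members.

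The member values that changed sign were these. Cd34 between WT cell types went to 0.11 by library size, 0.04 by limma, 0.43 and 1.09 in pairs of experiments and 0.15 as a ratio of RPKM. Ly6a between Tgfbr2-/- cell types went to -0.38, -0.61, -0.32 and -0.35 by library size, upper quartile, limma and the filter at 10 counts, to -0.02, -0.02 and -0.22 in pairs of experiments, to -0.31 without the libraries above and to -0.34 as a ratio of RPKM. Thy1 there went to 0.16 and 1.17 in pairs of experiments. By genotype in ILC2p, Atxn1 went to 0.13 in experiment 2 and 0.80 without the libraries above, and Kit to -0.42 without those libraries. Divided by the ILC2 marker sum, which lay lower in Tgfbr2-/- cells and moves all genes of a library alike, Atxn1 went to 1.09 and Ly6a to 0.34. The difference for Atxn1 went to -0.31 and -0.35 by library size and upper quartile. Between ILC2p experiments Ly6a went to 0.03 and 0.05 and Kit to 0.71 and 0.01 by upper quartile or limma and the filter at 10 counts. Leaving out single libraries gave values on both sides of 0 for Cd34 (-2.05 to 0.85) between WT cell types, Ly6a (-0.13 to 0.13) between Tgfbr2-/- cell types, Kit (-0.67 to 1.17) and Atxn1 (-1.42 to 1.00) between ILC2p genotypes, Thy1 (-0.19 to 0.42) between LP genotypes, Atxn1 (-0.79 to 1.56) and Kit (-0.02 to 1.77) for the difference, and Cd34 (-1.19 to 3.8), Kit (-0.51 to 1.08) and Thy1 (-0.14 to 0.57) between ILC2p experiments. Ly6a between ILC2p genotypes (-1.30 to -0.84) and between WT cell types (0.80 to 1.23) kept its sign under all 21 fits tried for each, and the second call was lost with upper quartile scaling (adjusted p = 0.115) and in each pair of experiments (adjusted p = 0.175 to 0.332).

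Depth, at 10957021 counts or more, did not limit Ly6a, Kit or Thy1. The levels of Cd34 and Atxn1 in ILC2p rest on 0 to 2697 counts a library, and the spread between libraries exceeds counting error.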
